A study of Mus musculus with 6 samples.

Results

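Genes of ribosome biogenesis and RNA polymerase I were compared between wild-type (WT) mouse embryonic stem (ES) cells and ES cells carrying a knockout (KO) of Alkbh1, which encodes an AlkB-type dioxygenase. Members were the tested genes whose symbols fit a fixed pattern of nucleolar gene names, among them Nop, Utp, Rrp, Nol and Polr1 followed by a number or letter, and single names such as Fbl, Ncl, Npm1 and Dkc1. The pattern fitted 59 rows of the table, and 58 of these had been tested by the authors, out of 14095 tested genes in all. The remaining row was Nol4, a gene at under 1 FPKM in both genotypes that the table marks as not tested. The choice rested on names and on whether the authors had tested the gene, and it was made with earlier results of these data known.

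Both genotypes were TT2 cells, an ES cell line of mixed C57BL6 and CBA descent, at passage 5 and cultured without feeders. There were 2 WT libraries and 4 KO libraries, the latter from 2 KO clones with 2 libraries each, and the labels do not say which part of Alkbh1 was deleted, nor whether the repeats were separate cultures. The deposited table holds 1 value per genotype, in FPKM (fragments scaled to transcript length and to the number of mapped fragments), with the authors' log2 fold change of KO over WT and their p and q. It gives no value for a single library, so levels below have no SD, the clones were not compared and the depth is unknown. A gene is said to have fallen or risen where the authors' q was under 0.05, and genotype and clonal differences cannot be told apart.

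Ribosome production starts in the nucleolus, where RNA polymerase I transcribes the long common precursor of most ribosomal RNAs. Small nucleolar ribonucleoproteins (snoRNPs) then methylate and pseudouridylate the precursor, and assembly factors fold, cut and pack it with ribosomal proteins into the small 40S and the large 60S subunit. ES cells divide fast and have large nucleoli, and the genes of this pathway are among their abundantly expressed housekeeping genes.

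The targeted gene Alkbh1 had 33.9 FPKM in WT against 18.1 in KO (-0.90; authors' deposited table) and was not called (q = 0.0943), in a region that the table also gives for neighbouring genes, so its reads may be mixed with theirs. All 8 ES cell markers looked up were at 75.04 FPKM or more in both genotypes. Of these 6 fell, among them Pou5f1 from 1222 to 716 FPKM (-0.77), while Esrrb was not called and Nanog was not tested. For comparison, 28.4% of all tested genes fell. In the highest of 10 classes by mean FPKM 77.2% fell, with a median of -0.72. Of 10 fibroblast markers 9 were under 1 FPKM in both genotypes (summed 7.32 FPKM in WT against 11.4 in KO, with Col3a1, Lum, Postn and Twist2 listed at 0 in WT), and all 6 markers of extraembryonic endoderm were under 1 FPKM. Markers of trophoblast (6 genes, summed 56.6 and 55.2 FPKM) and of neural cells (5 genes, 51.7 and 49.4 FPKM) came mostly from Tfap2c and Tubb3, neither of which was called. Among the low markers, Pax6 fell from 3.58 to 0.552 FPKM (-2.70) and Sox1 fell too (-2.17), while Map2 (1.12), Hand1 (1.41), Elf5 (1.56), Krt8 (0.48) and the fibroblast genes Col1a1 (1.04), Pdgfrb (1.49) and Thy1 (0.55) rose by the authors' q. Of the endoderm markers Gata4 rose (0.69) and Sox7 fell (-1.07). The part of any of these in the results was not tested.

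Almost the whole group was lower in KO. By the authors' deposited table, 52 of the 58 genes fell and none rose, while of all tested genes 28.4% fell, 22.4% rose and 50.8% were called in either direction. The median log2 fold change of the 58 genes was -0.80, a KO level of 57.6% of WT, against -0.06 over all tested genes. Fold changes ran from -1.32 for Utp18 to 0.78 for Utp14b, and 17 genes fell at least 2-fold. In bulk RNA, fewer cells of a type and less RNA per cell cannot be told apart. The 6 genes that were not called were Polr1a, Tcof1, Nol6, Nol9, Utp14b and Nol3.

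**Figure D1:**
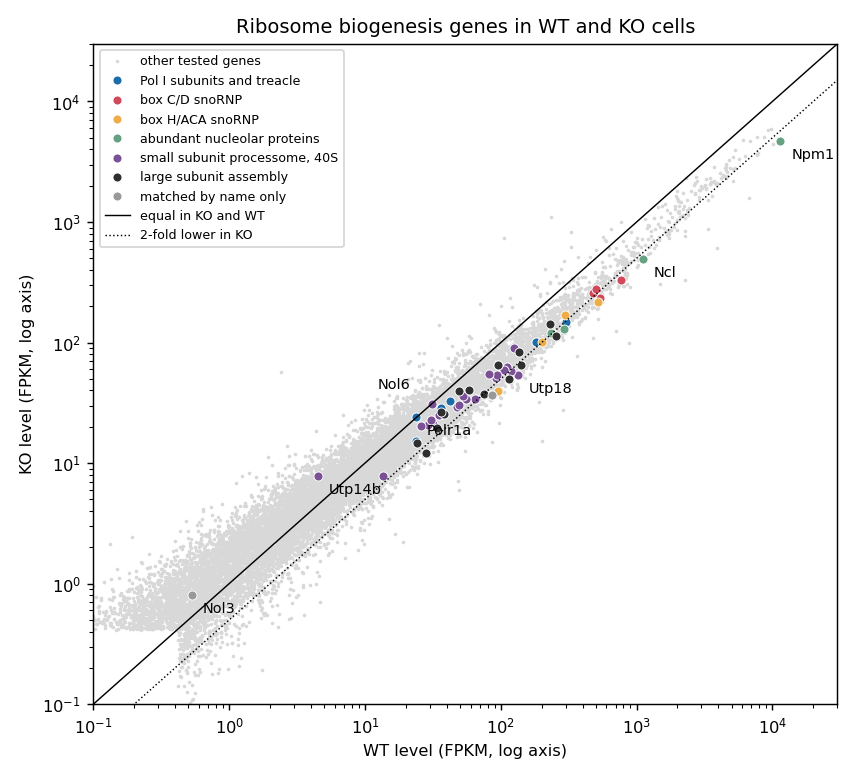
Level of each tested gene in WT (x axis) and KO (y axis), in FPKM on log axes, with 1 value per genotype and no error bars because the table holds none. Coloured points are the 58 ribosome biogenesis genes by role and grey points are other tested genes (those past the ends of the axes are not drawn); 55 coloured points lie below the line of equal levels, and 17 of them at or below the dotted 2-fold line.

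The members are abundant genes, and abundant genes as a whole were lower in this table. With tested genes ranked into 10 deciles by mean FPKM, 25 of the 58 genes lay in the highest decile, 16 in the next and 12 in the one after. The median log2 fold change of tested genes went down from 0.69 in the lowest decile to -0.72 in the highest. In the 2 highest deciles, 40 of 41 members fell (97.6%), against 1883 of the 2767 other genes there (68.1%), with medians of -0.89 and -0.61. Set against the median of tested genes in its own decile, the median member lay 0.22 lower on the log2 scale (-0.22), and 47 of 58 lay below it. These are descriptions of pooled values, and no test of the list was run.

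**Figure D2:**
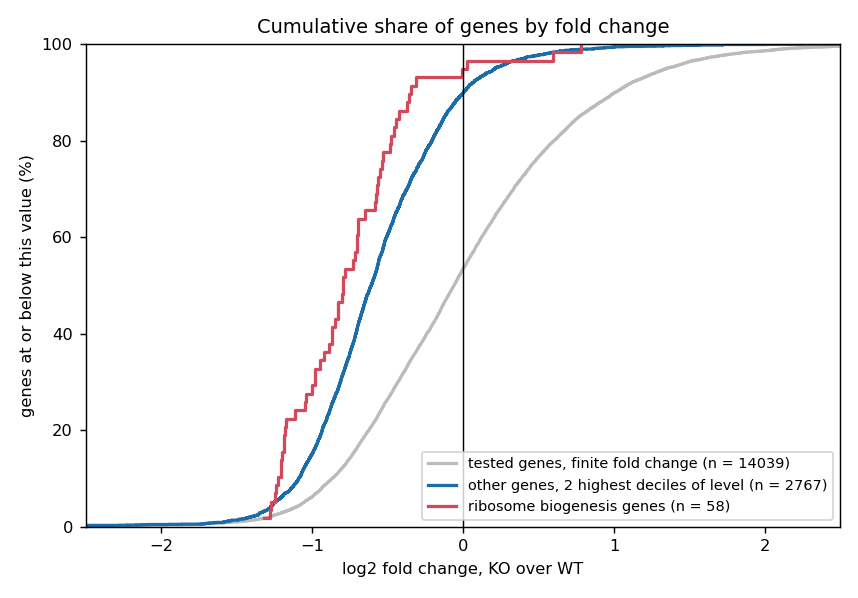
Cumulative share of genes (y axis, percent) at or below each log2 fold change of KO over WT (x axis). The curve of the 58 ribosome biogenesis genes (median -0.80) lies left of that of the other genes in the 2 highest deciles by level (n = 2767, median -0.61) over most of its length and of that of tested genes with a finite fold change (n = 14039, median -0.06).

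The scale of the deposited values bears on every fall given here. FPKM of tested genes summed in KO to 63.6% of the sum in WT, a log2 ratio of -0.65. Subtracting that ratio from each fold change makes the totals equal. The median of the 58 genes would then be -0.14 and that of all tested genes 0.59, and the 52 calls would split into 37 below and 15 above 0 (2375 below and 4788 above among all called genes). All 12 snoRNP and abundant nucleolar genes would stay below 0, as would 12 of the 21 small subunit and 10 of the 14 large subunit factors that fell, and 2 of the 4 RNA polymerase I genes. The order of the genes does not depend on such a factor, nor does their distance from the other genes of a decile while the deciles are kept.

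RNA polymerase I itself showed unequal values among its subunits. Polr1a, the largest catalytic subunit, stood at 23.8 FPKM in WT against 24.3 in KO (log2 fold change 0.03, q = 0.894, authors' deposited table). Its catalytic partner Polr1b fell from 42.4 to 32.8 FPKM (-0.37, q = 0.0327, authors' deposited table). The 2 subunits that RNA polymerase I shares with RNA polymerase III fell further: per the authors' deposited table Polr1c went from 181 to 100.5 FPKM (-0.85) and Polr1d from 303 to 148 FPKM (-1.04), both at q = 0.000206. That q is the smallest in the table, where the smallest p of 5e-05 is shared by 35 of the 58 genes, so these cannot be ranked by it. Polr1e, which works in initiation and elongation, fell from 23.7 to 15.1 FPKM (-0.65, q = 0.000722, authors' deposited table). Tcof1 encodes treacle, a nucleolar scaffold that promotes ribosomal RNA transcription, and had 36.0 FPKM in WT against 28.4 in KO (-0.34, q = 0.0525, authors' deposited table), just past the threshold. Against genes of like level, Polr1e (-0.50), Polr1d (-0.32) and Polr1c (-0.13) lay lower, Tcof1 lay at 0.00, and Polr1b (0.14) and Polr1a (0.37) lay higher. Against genes of like level and transcript length, Polr1e was at -0.46, Polr1d at -0.19, Tcof1 and Polr1b at -0.12, Polr1c at 0.00 and Polr1a at 0.09. The median of these 6 was -0.12.

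Subunits of the other 2 nuclear polymerases differed in their distance from genes of like level. For comparison, the median of the 6 genes of RNA polymerase I and treacle lay at -0.06 against their deciles (3 of 6 below). Against the median of their deciles, the median RNA polymerase III subunit was at -0.21 (8 of 11 below) and the median RNA polymerase II subunit at 0.06 (4 of 8 below). Of 11 RNA polymerase III subunits 6 fell and none rose by the authors' deposited table (54.5%, next to 28.4% of all tested genes and 44.9% of those in the eighth decile), with a median of -0.58. Among those not called were the largest subunit Polr3a (-0.13, q = 0.516) and the small Polr3gl (-0.12, q = 0.613). Polr3d (-0.96) and Polr3k (-0.87) fell furthest in the authors' deposited table. Of 8 RNA polymerase II subunits 7 fell (87.5%, next to 77.2% of the highest decile), led by Polr2m (-1.20) and Polr2g (-0.91). With equal totals 3 of the 6 and 4 of the 7 that fell would remain below 0. The remaining one, the largest subunit Polr2a, rose from 44.04 to 93.6 FPKM (1.09, q = 0.000206; authors' deposited table). A further 17 tested genes of RNA polymerase I, from its smaller subunits to its initiation factors, had 12 that fell, 4 not called and 1 that rose. The share that fell was 70.6%, next to 28.4% of all tested genes and 68.5% of the 2 highest deciles by level. The median of these 17 lay at -0.21 against their deciles (12 of 17 below). By the authors' deposited table Polr2k, a small subunit common to all 3 polymerases, fell from 375 to 147 FPKM (-1.35). Among genes of the initiation machinery, Taf1d (-1.33), Taf1b (-0.81), Rrn3 (-0.69) and Ubtf (-0.52) fell there, the last of which encodes the upstream binding factor. Taf1c was not called (-0.14, q = 0.537). Against genes of like level Taf1d lay at -0.61, Taf1b at -0.47, Rrn3 at -0.18 and Ubtf at -0.01. The one that rose was Baz2a, which encodes the ribosomal DNA silencing factor TIP5, from 25.5 to 47.3 FPKM (0.89, authors' deposited table).

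Proteins of the modification snoRNPs fell without exception by the authors' deposited table. In the box C/D particle, which guides 2'-O-methylation, the methyltransferase gene Fbl (fibrillarin) fell from 506 to 277 FPKM (-0.87). The core genes Nop56 (535 to 236 FPKM, -1.18) and Nop58 (769.6 to 333 FPKM, -1.21) fell further. Nhp2l1, whose product binds the kink-turn of the RNA and also serves the spliceosome, fell from 479 to 259 FPKM (-0.89, authors' deposited table). The core pair Nop56 and Nop58 was thus close in fold change, as were Fbl and Nhp2l1. In the box H/ACA particle, which guides pseudouridylation, the pseudouridine synthase gene Dkc1 (dyskerin) fell from 201 to 102 FPKM (-0.98; authors' deposited table). Its partners Nhp2 (517 to 219 FPKM, -1.24), Gar1 (95.8 to 39.6 FPKM, -1.27) and Nop10 (295 to 169 FPKM, -0.80) also fell there. All 8 had q = 0.000206 and lay below the median of genes of like level, from -0.08 for Nop10 to -0.77 for Gar1. With length classes added, Nop10 lay at 0.04 and the other 7 remained below 0.

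Several of these genes carry snoRNA genes in their introns, and the table has rows for some of them. Within the regions of Nop56, Nop58, Gnl3 and Ncl it lists 6 tested snoRNA rows, none of which was called. All 6 had lower values in KO: Snord110 (-2.51) and Snord57 (-0.60) inside Nop56, Snord82 (-2.27) and Snora75 (-0.69) inside Ncl, Snord69 (-1.07) inside Gnl3 and Snord70 (-0.23) inside Nop58. Their q ran from 0.398 for Snord82 to 0.916 for Snord70 in the authors' deposited table. Of the snoRNA rows there that were not tested, Snord11 inside Nop58 had 0 FPKM in WT against 138 in KO. Snord19 inside Gnl3 was at 0 in both. Values of such short RNAs are uncertain in messenger RNA libraries.

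Genes of 4 further abundant nucleolar proteins, Npm1, Ncl, Gnl3 and Npm3, fell by more than the median of the 58 genes. Npm1 (chromosome 11, 33052497 to 33063206, mm9) encodes nucleophosmin, a histone and ribosome chaperone, and fell from 11451 to 4726 FPKM (-1.28, q = 0.000206, authors' deposited table). Npm1 alone made up 57.0% of the WT sum of the 58 genes, and processed copies of it elsewhere in the genome make its reads uncertain. Ncl, for nucleolin, fell from 1118 to 496 FPKM (-1.17) and the GTPase gene Gnl3 (nucleostemin), known for its high level in stem cells, from 293 to 129 FPKM (-1.19; authors' deposited table). Npm3, a relative of Npm1, fell from 236 to 119.7 FPKM (-0.98, authors' deposited table). The FPKM sum of the 58 genes in KO was 45.6% of that in WT, and 51.4% without Npm1.

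Factors of the small subunit processome, the particle that folds and cuts the 5' part of the precursor, showed a broad range. Of 23 genes 21 fell (91.3%) and none rose by the authors' deposited table, with a median of -0.70. Of all tested genes 28.4% fell, and of those in the 2 highest deciles by level 68.5%. Against genes of like level the median of the 23 was -0.14, with 19 below. Those above were Utp14b (0.70), Nol6 (0.34), Nol11 (0.26) and Utp6 (0.17). Utp18 (chromosome 11, 93720556 to 93747080, mm9), a WD-repeat protein that recruits the RNA exosome, fell furthest of all 58 genes, from 134 to 53.7 FPKM (-1.32, q = 0.000206, authors' deposited table). The U3 snoRNP proteins Mphosph10 (119 to 57.7 FPKM, -1.05), Imp3 (94.3 to 54.2 FPKM, -0.80) and Imp4 (92.0 to 50.4 FPKM, -0.87), which act as a unit, all fell by the authors' deposited table. Rrp9, another protein of the U3 particle, fell too (65.5 to 33.97 FPKM, -0.95). Nat10, the acetyltransferase of 18S ribosomal RNA, fell from 49.1 to 30.3 FPKM (-0.70) and Utp14a from 64.6 to 34.2 FPKM (-0.92; authors' deposited table). Weaker falls were those of Rrp12 (-0.48), Rrp36 (-0.48), Nol11 (-0.46), Utp15 (-0.42) and the large scaffold gene Utp20 (25.9 to 20.3 FPKM, -0.36, q = 0.0387, authors' deposited table). The others that fell lay between -0.83 (Utp11l and Utp3) and -0.54 (Rrp7a), among them Utp23 (-0.78), Nol10 (-0.72), Noc4l (-0.70), Nop9 (-0.58), Nop14 (-0.57) and Utp6 (-0.55).

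Another pair of genes with this role was not called, and neither was clearly below its WT level. Nol6, a scaffold of the processome, was at 31.05 FPKM in WT against 30.97 in KO (0.00, q = 0.984, authors' deposited table). Utp14b, a retrogene copy of Utp14a with a role in the male germline, was at 4.53 FPKM in WT against 7.77 in KO (0.78, q = 0.104, authors' deposited table). The table gives Utp14b and Acsl3 the same region, so reads of both may be mixed.

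Large subunit assembly factors fell in 14 of 15 cases (93.3%), with a median of -0.73 by the authors' deposited table. In the 2 highest deciles by level 68.5% of tested genes fell. Against genes of like level the median of the 15 was -0.39, with 11 below. Those above were Nol9 (0.19), Nop2 (0.15), Pes1 (0.02) and Rrp1 (0.01). Of the PeBoW complex, a trimer needed for maturation of the large subunit RNAs, Wdr12 fell from 142 to 65.6 FPKM (-1.11), Pes1 from 232 to 143 FPKM (-0.70) and Bop1 from 57.9 to 40.2 FPKM (-0.53, q = 0.00374; authors' deposited table). Subunits of that trimer thus had unlike fold changes, and the difference was not tested. Ebna1bp2 (116 to 49.5 FPKM, -1.22), Nop16 (84.7 to 36.8 FPKM, -1.20), Rrp15 (256 to 113 FPKM, -1.18) and Rrs1 (75.3 to 37.6 FPKM, -1.002), early factors of the 60S precursor, fell at least 2-fold in the authors' deposited table. Rrp8, which methylates 28S ribosomal RNA, also fell past 2-fold, from 27.95 to 12.2 FPKM (-1.20, q = 0.00056, authors' deposited table). Smaller falls were those of Nol8 (-0.80), Nol12 (-0.73), Rrp1 (-0.70), Noc3l (-0.58), the cytosine methyltransferase gene Nop2 (-0.57) and Rrp1b (-0.45, q = 0.00924). Nol9, a polynucleotide kinase of precursor processing, was not called at 48.96 FPKM in WT against 39.4 in KO (-0.31, q = 0.075, authors' deposited table).

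**Figure D3:**
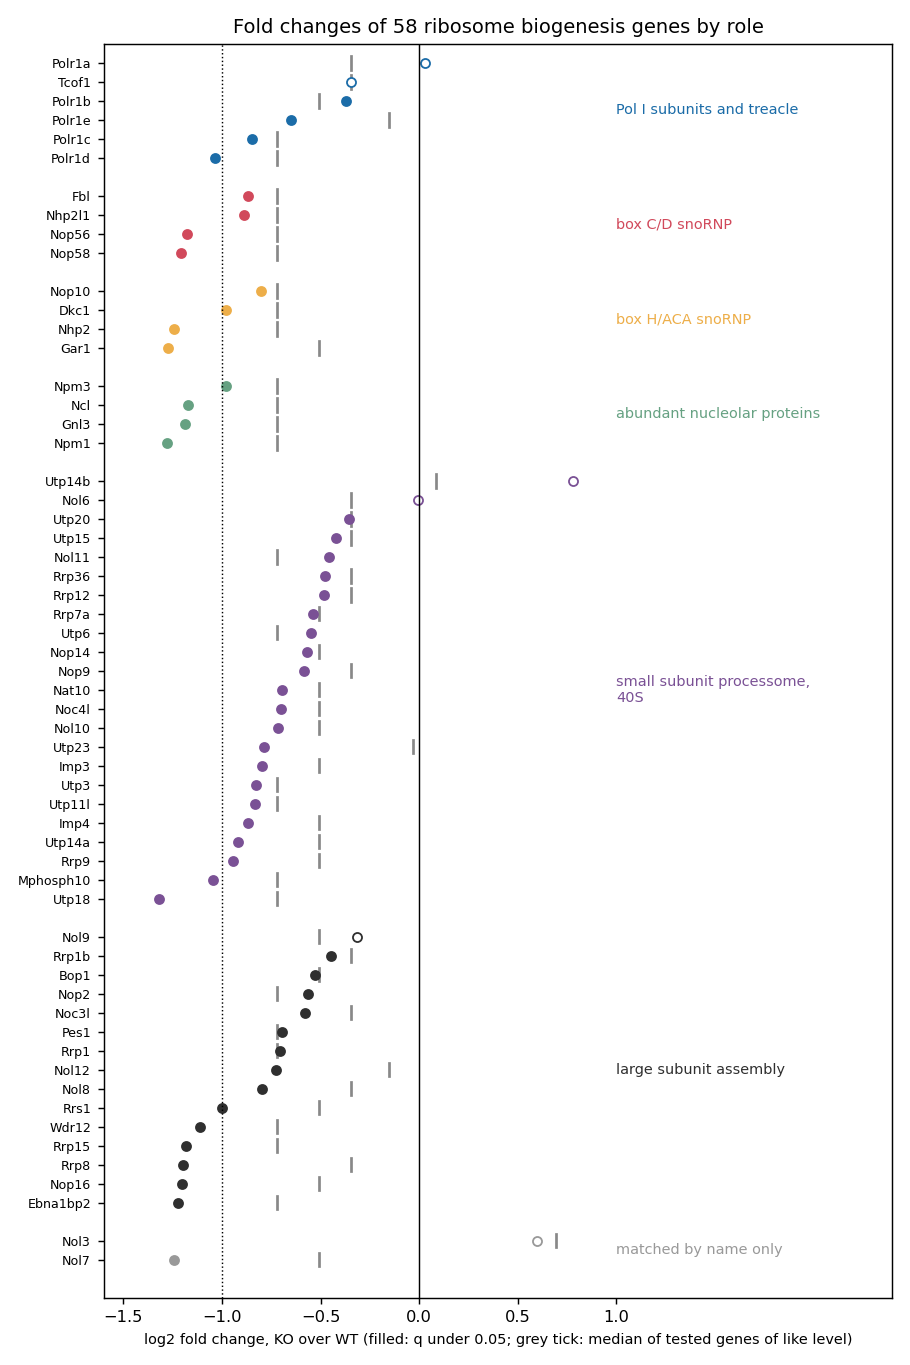
Log2 fold change of KO over WT (x axis) for each of the 58 genes (y axis), grouped and coloured by role. Filled points have q under 0.05 in the authors' deposited table, open points do not, grey ticks mark the median of the tested genes that share its decile, and lines mark 0 and a 2-fold fall; the snoRNP and abundant nucleolar genes lie left of their ticks.

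Nol3 and Nol7 were placed in none of these roles and are labelled in the figures as matched by name only. Nol3 encodes an inhibitor of apoptosis and stood at 0.532 FPKM in WT against 0.806 in KO (0.60, q = 0.412, authors' deposited table), in the lowest decile by level. Nol7, which encodes a nucleolar protein, fell from 86.6 to 36.6 FPKM (-1.24, authors' deposited table). Without this pair 51 of 56 genes fell.

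Fold changes within the group followed level and transcript length. Across the 58 genes, which share the same libraries and are not replicates, Spearman's rho of the log2 fold change was -0.63 with mean FPKM and 0.49 with the length of the longest protein-coding transcript in GENCODE M21. Level and length were themselves related among the members (rho -0.48), so these are not separate trends. Over all tested genes the same values were -0.55 (n = 14039) and 0.33 (n = 13931). Members of up to 2000 bases had a median of -0.98 (19 of 19 fell), those over 2000 and up to 4000 bases -0.70 (23 of 25) and those over 4000 bases -0.46 (10 of 14). Tested genes of the 3 highest deciles by level had medians of -0.69, -0.48 and -0.22 in these length classes. Polr1a has 9216 bases, Nol6 4599, Tcof1 4595 and Utp14b 7393, so 4 of the 6 uncalled genes were long. Polr2a, Mdn1 and Baz2a, which rose, have 6740, 17970 and 8443 bases, whereas Polr1d has 1196 and Polr1c 1314. The annotated length need not be that of the transcript used in ES cells: Nop58, Ncl and Wdr12 fell at least 2-fold with longest transcripts of 9507, 8202 and 10012 bases. The part of length in these differences was measured only by grouping: compared with tested genes of like level and like length, the median member lay at -0.29 and 48 of 58 lay below 0.

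**Figure D4:**
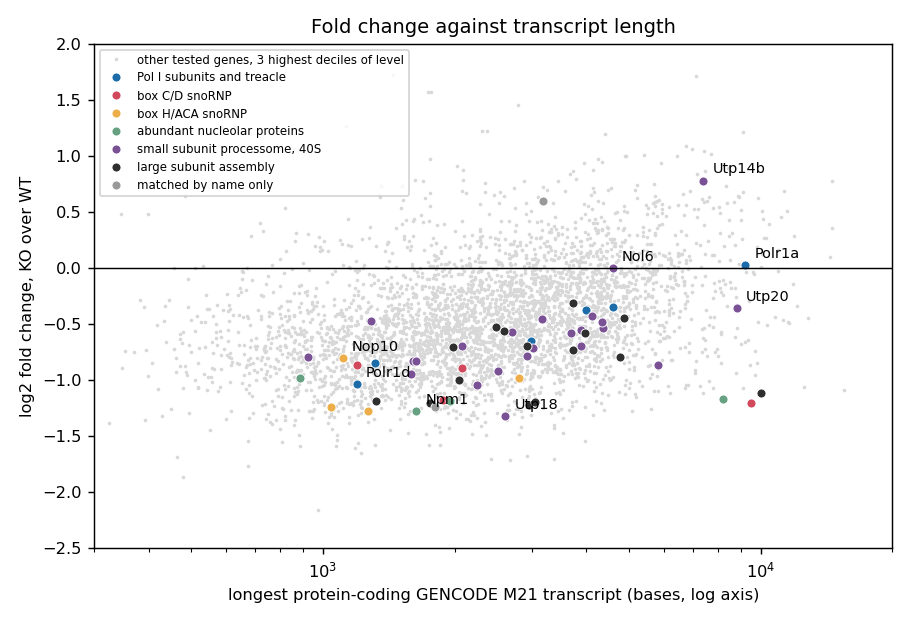
Log2 fold change of KO over WT (y axis) against the longest protein-coding transcript in bases (x axis, log scale). Coloured points are the 58 genes by role and grey points other tested genes of the 3 highest deciles by level (a few lie outside the axes). The 19 members of up to 2000 bases sit between -1.28 and -0.48. To the right, Nol3, Polr1a and Utp14b sit above 0 and Nol6 just below it.

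Other ribosome biogenesis genes, which the naming pattern did not take, had similar values. Of 39 tested small subunit factors 33 fell and none rose by the authors' deposited table, and of 46 large subunit factors 42 fell and 1 rose. Fcf1, an endonuclease-like factor, fell from 438 to 178 FPKM (-1.30) and the 18S methyltransferase gene Emg1 from 319 to 137 FPKM (-1.22; authors' deposited table). Rpf2, which helps to load the 5S RNP, fell from 163 to 54.5 FPKM (-1.58) and Rsl1d1 from 517 to 192 FPKM (-1.43; authors' deposited table). Mdn1, the giant AAA ATPase that strips factors off the 60S precursor, rose from 13.6 to 19.7 FPKM (0.53, q = 0.00148, authors' deposited table). Of 17 RNA exosome genes, which trim precursor ends, 14 fell and none rose, led by Exosc3 (99.9 to 34.4 FPKM, -1.54) and C1d (-1.31; authors' deposited table). Of 9 snoRNP assembly factors 7 fell and none rose, led by Znhit6 (-1.29) and Naf1 (-1.21). Znhit6 and Znhit3, which both fell, were counted in this list and also among the large subunit factors. The shares that fell were 84.6%, 91.3%, 82.4% and 77.8%, next to 28.4% of all tested genes and 68.5% of the 2 highest deciles by level. The medians of these 4 lists were -0.85, -0.85, -0.89 and -0.86, next to -0.80 for the 58 genes and -0.06 for all tested genes. Against genes of like level they were -0.33, -0.35, -0.31 and -0.26, next to -0.22 for the 58 genes. With equal totals 26, 32, 11 and 5 of the genes that fell in these lists would remain below 0.

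**Figure D5:**
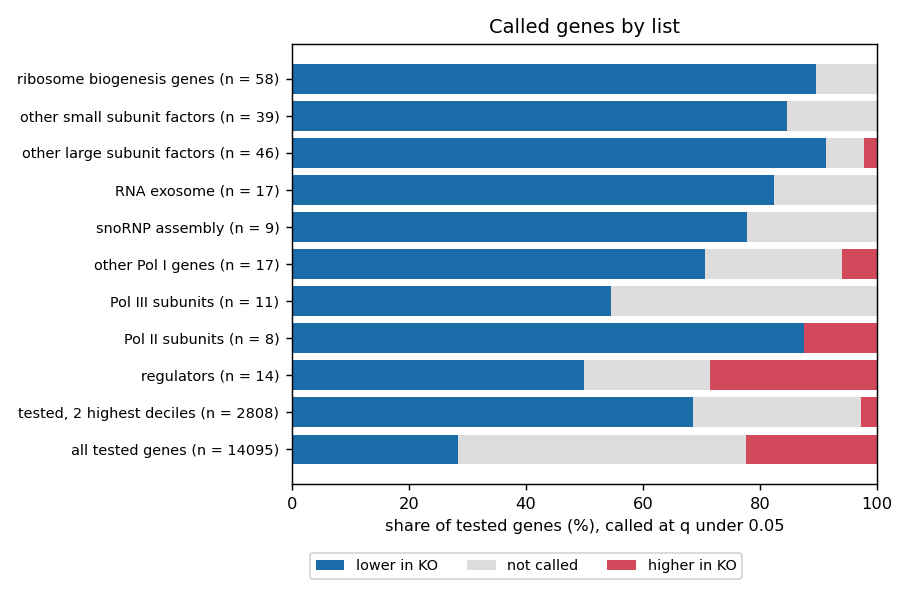
Share of tested genes (x axis, percent) that were called lower, not called or called higher at q under 0.05 in the authors' deposited table, for the 58 genes, 8 lists of related genes, the 2 highest deciles by level and all tested genes (n beside each name). The lower share is 89.7% for the 58 genes, 68.5% for the 2 highest deciles and 28.4% for all tested genes.

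Among regulators of the pathway and of nucleolar stress, calls went in both directions. MYC proteins are known to drive transcription of ribosome biogenesis genes. Both Mycn (99.004 to 30.2 FPKM, -1.71) and Myc (14.6 to 5.16 FPKM, -1.502) fell in the authors' deposited table, more than any of the 58 genes. Whether these falls had a part in those of the 58 genes was not tested. Rpl5 (-0.90) and Rpl11 (-0.76), whose proteins form the 5S RNP that binds Mdm2 when assembly fails, fell as well, as did Trp53 (-0.44, q = 0.00914). Against genes of like level, however, Rpl5 lay at -0.18, Rpl11 at -0.04 and Trp53 at 0.28. Mdm2 was not called (0.27, q = 0.126, authors' deposited table), while the p53 target Cdkn1a rose from 21.6 to 34.7 FPKM (0.68). Also higher were Rb1 (1.29), Nf1 (1.14) and Mtor (0.72). Each of these, and also Rpl5, which fell, is in a region that the table gives for more than 1 gene. Of 14 tested regulators 7 fell (50%), 4 rose (28.6%) and 3 were not called, next to 28.4% and 22.4% of all tested genes. Their median lay at 0.12 against genes of like level, with 7 of 14 below. Rn45s, the row for the 45S precursor RNA itself, fell from 1090 to 722 FPKM (-0.59, q = 0.00711, authors' deposited table), a value that is uncertain because ribosomal DNA is repeated and the libraries were made for messenger RNA.

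Promoters of the members were read from RefSeq (GRCm38.p6, 250 bases before to 50 after each start), where 48 of the 58 genes were found with 54 windows. The E-box letters CACGTG, which MYC proteins and other basic helix-loop-helix factors can bind, were in 14.8% of these windows, in 7.15% of all 32851 windows and in 12.3% of windows of other tested genes in the 3 highest deciles by level. Both strands were searched, and CACGTG reads the same on both. The ETS-type letters CCGGAAG were in 31.5%, 8.86% and 23.6%, the GC box GGGCGG in 64.8%, 35.7% and 65.7%, CCAAT in 31.5%, 37.4% and 40.6%, and TATAAA in 9.26%, 13.6% and 6.74% of the same 3 sets. No motif searched holds another in full, though matches may overlap at their ends. The 8 members with an E-box had a median log2 fold change of -0.55 and the 40 without -0.87 (0.00 and -0.30 against genes of like level), and the 16 members with CCGGAAG, all of which fell, had -0.87 against -0.80 for the 32 without (-0.40 and -0.25 against genes of like level). None of these splits was tested.

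Stretches around an E-box (capitals) are shown for the member that fell furthest, for 2 further members that fell and for Utp14b, which did not, so that the same letters can be seen beside unlike fold changes. All are 5' to 3' on the gene's strand and lie before the start, at chr11:93885767-93885816 (minus strand, Utp18), chr1:34439678-34439743 (plus strand, Imp4), chr6:125131793-125131858 (plus strand, Nop2) and chr1:78658347-78658412 (plus strand, Utp14b), GRCm38.p6.
Utp18: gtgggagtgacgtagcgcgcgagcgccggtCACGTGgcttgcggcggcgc
Imp4: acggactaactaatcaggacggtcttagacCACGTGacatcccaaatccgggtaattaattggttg
Nop2: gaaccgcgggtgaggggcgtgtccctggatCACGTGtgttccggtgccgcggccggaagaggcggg
Utp14b: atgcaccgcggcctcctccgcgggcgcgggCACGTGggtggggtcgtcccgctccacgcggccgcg
The first base of the E-box lies 20 bases before the start in Utp18, 121 in Imp4, 60 in Nop2 and 63 in Utp14b, with log2 fold changes of -1.32, -0.87, -0.57 and 0.78. Of the 8 members with an E-box 7 fell, and Utp14b, whose reads may be mixed with those of Acsl3, was the one not called.

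Stretches around the ETS-type letters (capitals, CCGGAAG or its reverse complement CTTCCGG) are shown for a pair of partners in the box H/ACA particle that fell alike, and for the polymerase subunit Polr1c. They lie at chr3:129831403-129831469 (minus strand, Gar1), chr11:51619720-51619772 (plus strand, Nhp2) and chr17:46248051-46248117 (minus strand, Polr1c), GRCm38.p6.
Gar1: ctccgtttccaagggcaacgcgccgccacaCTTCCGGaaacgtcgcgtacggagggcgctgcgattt
Nhp2: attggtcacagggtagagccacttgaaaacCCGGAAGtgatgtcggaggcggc
Polr1c: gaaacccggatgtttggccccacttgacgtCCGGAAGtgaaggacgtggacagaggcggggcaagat
The first base of the match lies 43, 23 and 42 bases before the start, and the log2 fold changes were -1.27, -1.24 and -0.85. These matches are descriptions of the reference sequence, and binding was not measured.

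The members lay on 19 chromosomes, with at most 7 on any 1 of them, and 19 shared their region in the table with another gene. Most of these fell, among them Nop56, Nop58, Nhp2, Dkc1, Ncl, Gnl3, Ebna1bp2, Wdr12, Rrp8 and Nol7. Their reads may be mixed with those of neighbours, as for Utp14b. The 17 tested neighbours other than small RNAs in those regions had a median log2 fold change of -0.06, with 2 that fell (Taf10 and 9530027J09Rik) and none that rose by the authors' deposited table. Without the 19 members, 35 of the remaining 39 fell, with a median of -0.78 and of -0.15 against genes of like level.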

How the data were processed

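Libraries of total RNA were prepared with a strand-specific messenger RNA kit, per the labels' protocols, and aligned with TopHat2 to mm9, per the submitters' processing notes. Not given in the sources used here are the version, annotation, library scaling and use of strand in counting. The authors deposited 1 table laid out as a Cuffdiff comparison, with 1 FPKM value per genotype and their log2 fold change, test statistic (a score), p-value and q-value, per the file headers. Deposited and recomputed log2 fold changes of the members differed by at most 9.12e-06.

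No expression test was run here. A call means a deposited q under 0.05. The 14039 tested genes with a finite fold change were ranked into 10 classes by mean FPKM (56 genes at 0 in 1 genotype were left out), and each class median was subtracted; this step was tested on simulated data. Lengths came from GENCODE M21 for 13931 genes, promoter sequences from RefSeq. Every member may be named; of other lists, the 2 called genes per direction with the largest change, and all of a direction with 5 or fewer. Ubtf, Rrn3, Taf1b, Taf1c, Polr3a, Polr3gl, Rpl5, Rpl11, Trp53, Mdm2 and the cell type markers were named after their values were seen. Members, roles and lists were chosen with earlier results of these data known. Python 3.11.15, NumPy 2.4.6, pandas 2.3.3, SciPy 1.17.1 and Matplotlib 3.10.9 were used.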

Additional observations from a re-analysis of the deposited data

How the results depend on the processing

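No paired analysis was possible because the table holds 1 value per genotype, and for the same reason no library could be left out. Of the 58 genes 48 fell at q under 0.01 and 54 at q under 0.1, none rose at either, and 38 fell at least 1.5-fold and 17 at least 2-fold. Of the 52 called genes, 15 lay above 0 with equal totals, 6 above the median of their decile by level and 6 above that of genes of like level and length, a grouping added after seeing the data. The median log2 fold change of -0.80 became -0.75 as a mean, -0.78 without members that share a region or with 1 added to each FPKM (-0.776), -0.43 when centred on genes at or above the median level and -0.14 with equal totals. The median against genes of like level, -0.22, became -0.23 as a mean, with a filter at 5 FPKM or with 20 classes, -0.21 with 1 added, -0.17 in deciles of WT FPKM, -0.15 without members that share a region and -0.29 within length classes. The signs of both medians were kept under every alternative run. Depth is unknown, so the precision of single levels rests on the authors' q.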
